A study of Homo sapiens with 6 samples.

Results

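The GATA transcription factor genes GATA1 to GATA6 and their FOG cofactor genes ZFPM1 and ZFPM2 were examined in ATAC-seq data from HLF cells, an established human hepatocellular carcinoma line. These 8 genes were chosen by name, from 20007 protein-coding genes. Peaks were counted for a gene where they lay within 1 kb of any annotated start site, in the gene body, or within 50 kb of either end (GENCODE annotation, hg38). Overlapping peaks of the 6 libraries were joined into sites, of which 126 of 166021 belonged to the 8 genes.

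ATAC-seq cuts open chromatin with a transposase, so a peak marks accessible DNA. The labels name no engineered change, and the cells were grown with DMSO, the solvent control (3 libraries), or with 5 µM SNDX-5613 (3 libraries), a small molecule that keeps menin from binding MLL1. All 6 libraries were labelled as 24 h of treatment and as batch 1, and no label ties them to separate cultures. The study states that for each replicate 1 dish was split between the treatments, so that libraries of the same number may be pairs, and the fits with the replicate number as a block are given with the alternatives. The study's text gives a longer treatment for its ATAC-seq, and the labelled time was used here.

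GATA factors bind the DNA word GATA through a pair of zinc fingers. GATA1, GATA2 and GATA3 act mainly in blood cells, with GATA1 in red cells and platelets, GATA2 in blood stem cells and GATA3 in T cells. GATA4, GATA5 and GATA6 act in heart, gut and liver development. FOG proteins bind no DNA themselves, and they attach to a GATA factor and bring corepressors such as the NuRD complex and CtBP to its sites.

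The peak lists held 88026 to 113675 regions in 5 libraries and 40568 in SNDX-5613 replicate 3, whose background was 0.211 stacked fragments, 16.2% of the median of the other 5 libraries. That library had a peak at 33 of the 126 sites, against 60, 74 and 74 in DMSO and 77 and 72 in the other SNDX-5613 libraries. Values below are percentiles of the peak's −log10 p within its own library, where 100 is the strongest peak. In that short list a mid-ranked site falls to a lower percentile, so a second rank, taken only among the 33405 sites that every library called, is also given for several sites. A site enters that set only where SNDX-5613 replicate 3 also called it, so the second rank depends on that library too. By promoter peaks, hepatocyte markers were mostly closed, and mesenchymal and line markers were open. Promoters of 5 of 5 mesenchymal and line markers (VIM, FN1, ZEB1, CDH2 and CD44) had a peak in all 6 libraries, against 0 of 8 hepatocyte markers, of which ALB, APOA1, FGB, HNF4A and CYP3A4 had no promoter peak in any library, SERPINA1 had one in 2, and APOB and TTR had one in 5. APOB was at mean percentiles of 54.5 in DMSO and 66.8 in SNDX-5613, and TTR at 59.1 and 65.4. A promoter peak in all 6 libraries was found at 1 of 6 blood markers (EPOR), 0 of 4 endothelial markers and 2 of 4 cardiac muscle markers (TNNT2 and NKX2-5). The share over all protein-coding genes was 64.8%.

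Promoters of 6 of the 8 genes were open in both groups. A promoter peak was found in each of the 6 libraries at GATA2, GATA3, GATA4, GATA6, ZFPM1 and ZFPM2, while GATA1 had none and GATA5 had a weak one in SNDX-5613 replicate 2 alone. Among all protein-coding genes, 64.8% were open in this way in every library and 19.2% in none. Among genes with an open promoter, GATA3 and ZFPM1 lay somewhat above the middle, above 66.7% and 58.7% of them. The promoters of ZFPM2, GATA6 and GATA2 were among the weak ones.

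**Figure D1:**
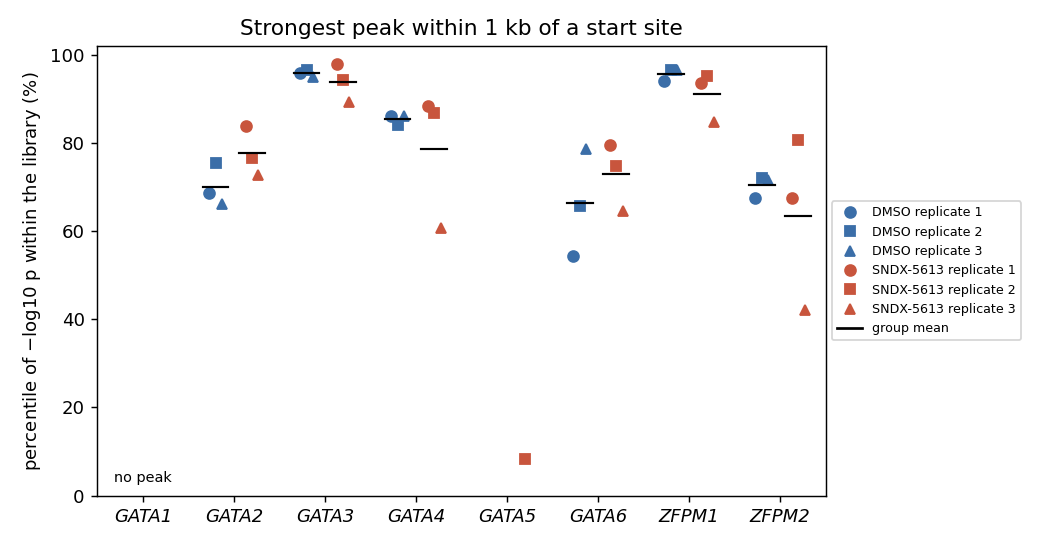
Percentile of −log10 p of the strongest promoter site in each library (y axis) for the 8 genes (x axis), with DMSO in blue, SNDX-5613 in red and black bars for group means. GATA3 and ZFPM1 sit highest, GATA1 has no peak, and SNDX-5613 replicate 3 is lowest at GATA3, GATA4, ZFPM1 and ZFPM2.

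GATA3 had the highest mean promoter percentile of the family, within the spread of ZFPM1. Its percentiles were 95.8, 96.5 and 95.1 in DMSO and 97.8, 94.2 and 89.2 in SNDX-5613, and the groups overlapped. With a mean of 94.8 ± 3.01 (SD, n = 6), it lay above 66.7% of the 12970 protein-coding genes with an open promoter. The site (chr10:8053358-8053898) lay in an intron of the annotated gene, over the start site at 8053604, and it was shared with the antisense gene GATA3-AS1. The canonical start was 790 to 1037 bp from the edge of the called region.

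GATA2 had an open promoter at an internal start only. Its strongest site (chr3:128487718-128488374, in an intron and shared with the promoter of GATA2-AS1) covered the start at 128487916, while at the canonical start, 128493201, the nearest region was 4175 to 5151 bp away in every library. Of 10 annotated GATA2 start sites, 3 had a region within 1 kb in all 6 libraries and 7 had none. The percentiles were 68.6, 75.5 and 66.2 in DMSO and 83.9, 76.6 and 72.8 in SNDX-5613. Only SNDX-5613 replicate 3 fell below the highest DMSO value, and among the sites of all 6 libraries the groups did not overlap, at 31.4, 30.4 and 22.7 in DMSO and 50.6, 37.9 and 67.3 in SNDX-5613. The highest of these ranks was that of SNDX-5613 replicate 3. The mean percentiles were 70.1 ± 4.86 and 77.8 ± 5.64 (SD, n = 3 each), a difference of 7.66 percentile points (two-sided exact permutation p = 0.2, where 3 against 3 can give no less than 0.1). In limma, on rank normal scores over all 33405 sites, the difference was 0.63 ± 0.21 (SE), with an unadjusted p of 0.00789 and an adjusted p of 0.338, so it did not pass 0.05. The SNDX-5613 percentile was above that of the DMSO library of the same number in 3 of 3 pairs, and with the replicate number as a block the limma adjusted p was 0.358. At the ZFPM1 promoter it was below in every such pair, and at the other open promoters of the family the pairs went both ways.

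GATA1 was closed throughout its own locus. None of its 4 start sites and no part of its gene body had a peak in any library, and the region nearest the canonical start lay 8514 to 8725 bp away. That region (chrX:48795104-48795776, intergenic, past the 3′ end of the gene) was present in all 6 libraries, at 55.7, 68.3 and 70.5 in DMSO and 68.4, 66.3 and 27.4 in SNDX-5613, and the low value was again that of SNDX-5613 replicate 3. The other 8 GATA1 sites were also in the flanks, where the promoter of the neighbouring gene HDAC6, a deacetylase, was at 93.1, 96.1 and 94.2 in DMSO and 96.0, 96.6 and 85.3 in SNDX-5613. Distance alone assigned those sites to GATA1.

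Several sites whose presence or rank differed between the groups are named without sequence, among them sites in ZFPM2 and in introns of GATA4 and GATA5. For other such sites, of GATA2, GATA3, GATA5 and GATA6, the 201 bases around the strongest summit are shown, so the GATA words can be read. They are from hg38, plus strand, at chr3:128438622-128438822 (GATA2, past the gene's end), chr10:8027067-8027267 (GATA3, before the gene), chr18:22223761-22223961 (GATA6, past the gene's end) and chr20:62449968-62450168 (GATA5, past the gene's end). A site in an intron of GATA2-AS1, chr3:128497694-128497894, is added because it held 2 GATA words and had a peak in the 5 deeper libraries, and it was chosen after its values were seen. Capitals mark 2 kinds of word on either strand. The GATA words searched were AGATAA with its variant ending in G, which is AGATAG, as well as the same pair with T as the first base, TGATAA and then also TGATAG. The other word was CCAAT, the core of the NF-Y site.
GATA2, DMSO libraries only: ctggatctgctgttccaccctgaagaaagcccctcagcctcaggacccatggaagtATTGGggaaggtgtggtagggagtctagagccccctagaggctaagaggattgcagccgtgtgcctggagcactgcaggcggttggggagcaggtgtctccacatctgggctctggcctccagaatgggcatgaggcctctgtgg
GATA2, 5 deeper libraries: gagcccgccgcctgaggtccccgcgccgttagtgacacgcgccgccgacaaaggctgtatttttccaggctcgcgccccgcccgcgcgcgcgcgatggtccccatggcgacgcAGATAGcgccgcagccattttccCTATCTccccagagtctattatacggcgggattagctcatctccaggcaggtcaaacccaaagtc
GATA3, both deeper SNDX-5613 libraries: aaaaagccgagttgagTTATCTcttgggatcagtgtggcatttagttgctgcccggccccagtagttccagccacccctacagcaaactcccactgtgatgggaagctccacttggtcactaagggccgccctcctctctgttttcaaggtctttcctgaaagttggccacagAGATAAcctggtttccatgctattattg
GATA6, higher percentile in SNDX-5613: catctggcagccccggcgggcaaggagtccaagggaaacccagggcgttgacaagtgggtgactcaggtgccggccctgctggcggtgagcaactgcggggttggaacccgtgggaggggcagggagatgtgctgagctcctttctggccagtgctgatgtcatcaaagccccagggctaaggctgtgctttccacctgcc
GATA5, lower percentile in SNDX-5613: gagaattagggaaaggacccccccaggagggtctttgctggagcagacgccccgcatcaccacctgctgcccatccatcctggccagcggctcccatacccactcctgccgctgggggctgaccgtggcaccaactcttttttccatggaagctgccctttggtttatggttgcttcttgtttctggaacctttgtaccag

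The first GATA2 site (chr3:128438546-128438825, intergenic) lay 40602 bp past the end of the gene. It had a peak in all 3 DMSO libraries, at percentiles of 40.5, 57.9 and 38.1, with 16, 25 and 16 stacked fragments at the summit, and in no SNDX-5613 library. The deeper SNDX-5613 libraries thus lacked it too, and in them the weakest called summits had 6 and 7 fragments. It held 1 CCAAT word and 0 GATA words. Its nearest protein-coding start was that of DNAJB8, a heat shock cochaperone gene, 28168 bp away.

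The GATA2 site with 2 GATA words (chr3:128497376-128498246) lay 4593 bp upstream of the canonical start. Its percentiles were 58.2, 76.5 and 69.1 in DMSO and 67.0 and 55.1 in the deeper SNDX-5613 libraries, and these overlapped. In limma without SNDX-5613 replicate 3 its difference had an adjusted p of 0.523. SNDX-5613 replicate 3 had a peak at 1 of the 12 GATA2 sites, the promoter.

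The GATA3 site (chr10:8026920-8027265, intergenic) lay 18113 bp before the gene's start and held 2 GATA words. It was called in SNDX-5613 replicates 1 and 2, at percentiles of 19.6 and 27.1 with 9 and 11 stacked fragments, and in no DMSO library. These are weak peaks in libraries whose lowest called summits had 6 and 7 fragments, and 2 of 3 against 0 of 3 is not a difference that a test at this size could call. The other GATA3 sites were sparse: 8 of the 12 were seen in 1 library alone.

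Of the heart and endoderm group, the promoters of GATA4 and GATA6 were open in every library, and that of GATA5 had a peak in 1 library only. GATA4 had the third strongest promoter, with a site (chr8:11703815-11704814) over its canonical start at 86.0, 84.0 and 86.0 in DMSO and 88.3, 86.8 and 60.7 in SNDX-5613. The last value, of SNDX-5613 replicate 3, set the direction: the group means were 85.4 ± 1.17 and 78.6 ± 15.5 (SD, n = 3 each), while without that library the difference was 2.19 points upward, and neither differed by limma (adjusted p = 0.945 and 0.799). Besides the promoter, 3 sites in GATA4 introns were present in the 5 deeper libraries. One of these (chr8:11736471-11736665, 32365 bp downstream of the canonical start) held a GATA word and kept its peak in all 6 libraries, at 32.4, 56.7 and 56.2 in DMSO and 57.9, 42.9 and 48.3 in SNDX-5613.

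GATA5 had no promoter peak in 5 of 6 libraries. In SNDX-5613 replicate 2 a region began 150 bp from its only start site, at a percentile of 8.33. The GATA5 neighbourhood nevertheless had the densest sites, 23 in all or 20.4 per 100 kb, of which 19 lay in the flanks and 9 were seen in 1 library only. A flanking site 12813 bp past the gene's end (chr20:62449837-62450684) was at 63.3, 68.8 and 72.8 in DMSO and 63.1, 52.6 and 37.4 in SNDX-5613. All 3 SNDX-5613 values were below all 3 DMSO values, although 63.3 and 63.1 nearly met, with a mean difference of −17.2 (exact permutation p = 0.1, the smallest possible). The limma score difference was −0.36 ± 0.24 (SE, adjusted p = 0.637), and the ranks among the sites of all 6 libraries overlapped, at 24.8, 20.2 and 32.4 against 14.8, 8.56 and 26.6. A GATA5 intron site (chr20:62466207-62466462) had a peak in SNDX-5613 replicates 1 and 2, at 11.6 and 32.2, and in no DMSO library.

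GATA6 was open at both of its start sites, with the widest of the 6 promoter sites at 1724 bp (chr18:22169065-22170788, shared with GATA6-AS1). Its percentiles spread widely within DMSO, at 54.3, 65.8 and 78.7, and lay at 79.5, 74.7 and 64.5 in SNDX-5613. The groups overlapped, with means of 66.3 ± 12.2 and 72.9 ± 7.64 (SD, n = 3 each; difference 6.65, exact permutation p = 0.6). The limma score difference was 0.56 ± 0.24 (SE, adjusted p = 0.469). Among the sites of all 6 libraries the ranks were 16.0, 16.7 and 43.0 in DMSO and 39.9, 34.5 and 57.6 in SNDX-5613, a difference of 18.7, and they overlapped too. The percentile difference was 0.687 points without DMSO replicate 1, 12.8 without DMSO replicate 3 and 10.8 without SNDX-5613 replicate 3.

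A GATA6 flanking site (chr18:22223748-22224075, in an intron of the gene model ENSG00000264825) lay 21220 bp past the gene's end and had the largest score difference of the 26 sites present in all 6 libraries. It was at 42.4, 29.7 and 41.5 in DMSO and 55.3, 55.5 and 48.8 in SNDX-5613, with 15, 11 and 16 and 20, 22 and 7 stacked fragments, and the groups did not overlap. The difference was 15.3 points (exact permutation p = 0.1), and the limma score difference was 0.84 ± 0.35 (SE, unadjusted p = 0.0316, adjusted p = 0.448). Among the sites of all 6 libraries the ranks were 8.27, 0.985 and 4.70 in DMSO and 8.51, 10.6 and 39.4 in SNDX-5613. The highest of these was that of SNDX-5613 replicate 3, and 8.27 and 8.51 nearly met. Without SNDX-5613 replicate 3 the percentile difference was 17.5 points and the score difference was 0.587 (limma adjusted p = 0.496). None of the 5 GATA6 sites held a GATA word within 100 bp of its summit.

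Both FOG genes were open. ZFPM1, which encodes FOG1, the partner of GATA1 in red cells and platelets, had a promoter almost as strong as that of GATA3, although GATA1 itself was closed. Its site (chr16:88452664-88453408) was at 94.0, 96.5 and 96.6 in DMSO and 93.6, 95.2 and 84.7 in SNDX-5613, and it lay within 1 kb of all 4 ZFPM1 start sites in every library. It was the one open promoter of the 6 with a lower rank score in SNDX-5613, −0.23 ± 0.14 (SE, limma adjusted p = 0.61). ZFPM1 had 30 sites, the most of the family, of which 15 were seen in a single library and 7 in all 6.

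ZFPM2, which encodes FOG2, the partner of GATA4 in heart and gonad, had a weaker promoter. Its site (chr8:105318936-105319930) was at 67.5, 72.0 and 71.6 in DMSO and 67.5, 80.6 and 42.2 in SNDX-5613, so that 1 deeper SNDX-5613 library lay above all DMSO values and the shallow one below them. A second, weaker site next to it (chr8:105318333-105318722), over the canonical start itself, was at 21.0, 47.2 and 27.9 in DMSO and 19.2 and 2.24 in the deeper SNDX-5613 libraries. Its difference without SNDX-5613 replicate 3 was −21.4 points, with an unadjusted limma p of 0.0149 and an adjusted p of 0.272, the lowest of 46 sites in that fit. A ZFPM2 intron site (chr8:105781833-105782179) had a peak in every DMSO library, at 28.5, 46.1 and 41.5 with 11, 16 and 16 stacked fragments, and in no SNDX-5613 library, and it held 1 GATA word. Another site within ZFPM2 (chr8:105143162-105143647), also with 1 GATA word, was seen in both deeper SNDX-5613 libraries, at 34.4 and 22.6. It had no peak in SNDX-5613 replicate 3 or in any DMSO library. The annotated gene spans 1213.81 kb, since some transcripts start far upstream, and its 22 sites made 1.67 per 100 kb.

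In the order of mean promoter percentile, GATA3 (94.8) came first, then ZFPM1 (93.4), GATA4 (82.0), GATA2 (73.9), GATA6 (69.6) and ZFPM2 (66.9). They lay above 66.7%, 58.7%, 20.4%, 11.9%, 8.91% and 7.49% of the genes with an open promoter. Only the step from ZFPM1 to GATA4 was in the same order in 6 of 6 libraries, at 11.5 ± 6.61 points (SD of the paired differences, n = 6). GATA3 was above ZFPM1 in 3 of 6 libraries and GATA6 above ZFPM2 in 3 of 6, and the steps from GATA4 to GATA2 and from GATA2 to GATA6 held in 5 of 6, so these neighbours did not differ beyond their spread. The genes with the most similar promoter percentiles over the 6 libraries, by Euclidean distance, were PPP1R35 and OGG1 for GATA3, SRD5A3 and ENSG00000288695 for ZFPM1, HKDC1 and ENSG00000288053 for GATA4, PHLDA2 and MOXD1 for GATA2, MAGEE1 and LAD1 for GATA6, and ARHGEF16 and IL7 for ZFPM2. The distances were 1.32 to 2.82 points for the first 3 genes and 7.33 to 13.1 points for the last 3.

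**Figure D2:**
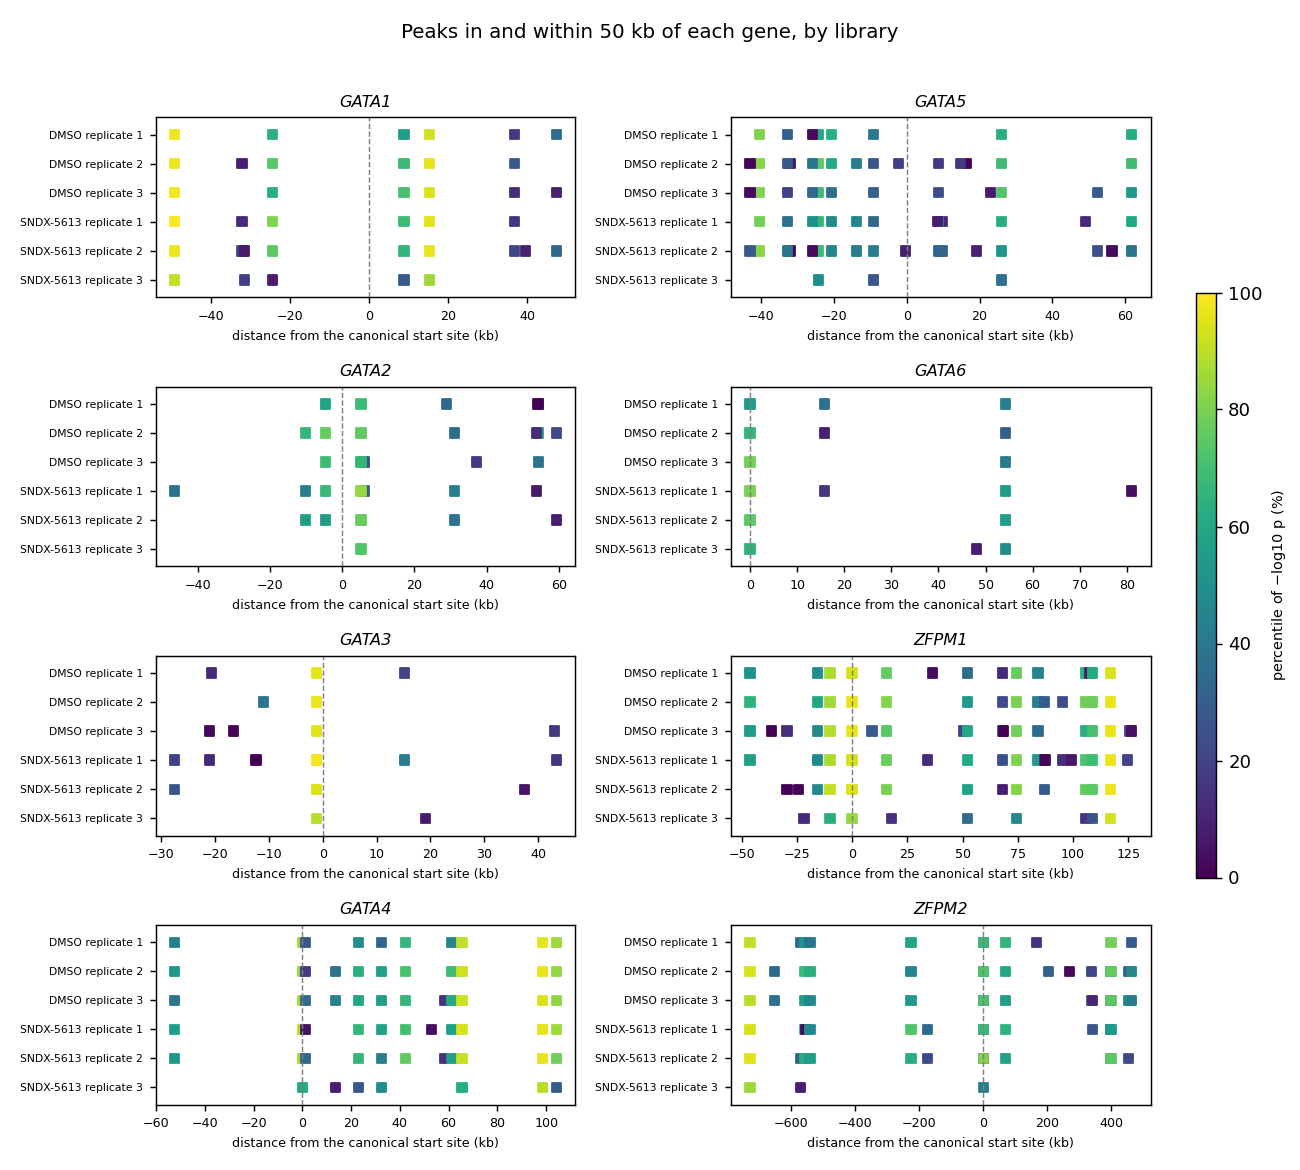
Sites of each gene by distance of the summit from the canonical start (x axis, kb, positive downstream) in each of the 6 libraries (y axis), coloured by percentile of −log10 p. GATA1 has no site between its start and 8.8 kb downstream, the GATA2 promoter site lies 5.2 kb inside the gene, and SNDX-5613 replicate 3 lacks many of the weak sites.

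Over the 126 sites, 26 (20.6%) had a peak in all 6 libraries and 46 (36.5%) in 1 only, against 20.1% and 36.2% of all sites. The number of sites with a peak did not separate the groups at any gene. The largest gap was at ZFPM2, with 11, 16 and 14 sites in DMSO and 12, 12 and 3 in SNDX-5613 (exact permutation p = 0.3). At GATA1 the numbers were 6, 6 and 6 against 6, 9 and 5, and at GATA5 they were 8, 15 and 12 against 13, 17 and 3. Without SNDX-5613 replicate 3, the family mean was 74.5 sites in SNDX-5613 and 69.3 in DMSO.

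**Figure D3:**
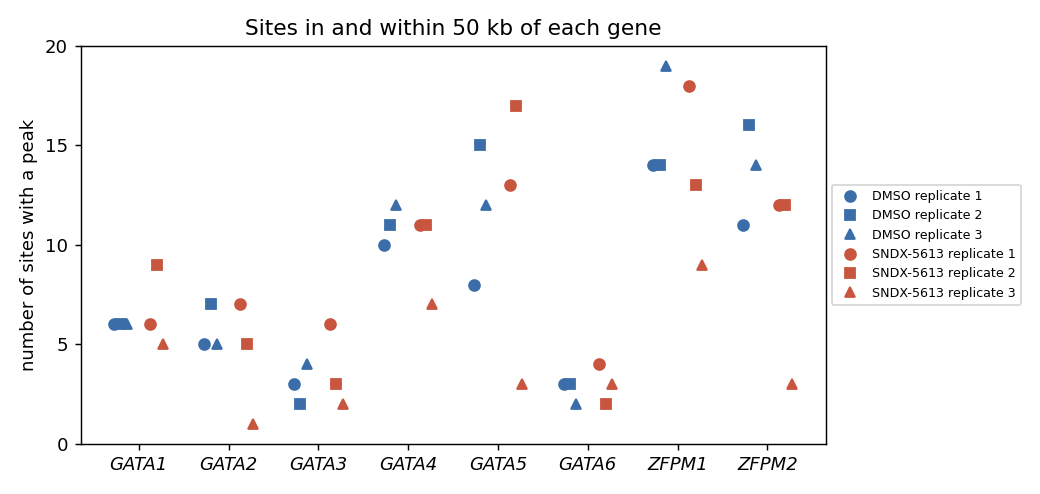
Number of sites with a peak (y axis) at each gene (x axis) in each library, DMSO in blue and SNDX-5613 in red. SNDX-5613 replicate 3 has 3 sites at GATA5 and at ZFPM2, where the other libraries have 8 to 17.

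The comparison of the 2 treatments at the sites present in all 6 libraries asked whether menin inhibition was accompanied by a change of accessibility near these genes. Of the 26 sites tested, 0 passed an adjusted p of 0.05 in limma with Benjamini-Hochberg adjustment, and 3 had an unadjusted p under 0.05 (the GATA2 promoter, the GATA6 promoter and the GATA6 downstream site), which is 11.5% against 10.1% of all sites. Over all 33405 sites, 0.195% were called higher and 0.0269% lower in SNDX-5613. The score was higher in SNDX-5613 at 18 of the 26 sites and lower at 8, with a median difference of 0.04. Over all sites it was higher at 16223 and lower at 17182, with a median of −0.01. By own percentile, 1 site (GATA6, downstream) was higher in all 3 SNDX-5613 libraries and 1 (GATA5, downstream) lower, against 0.994% and 7.68% of all sites. By rank among the sites of all 6 libraries, 3 were higher (the GATA2 promoter, a GATA4 intron site 22872 bp from the canonical start and the GATA6 downstream site) and 0 lower, against 8.54% and 8.08% of all sites. In the fit without SNDX-5613 replicate 3, 0 of 46 sites were called, against 0.358% higher and 0.217% lower of 59985.

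**Figure D4:**
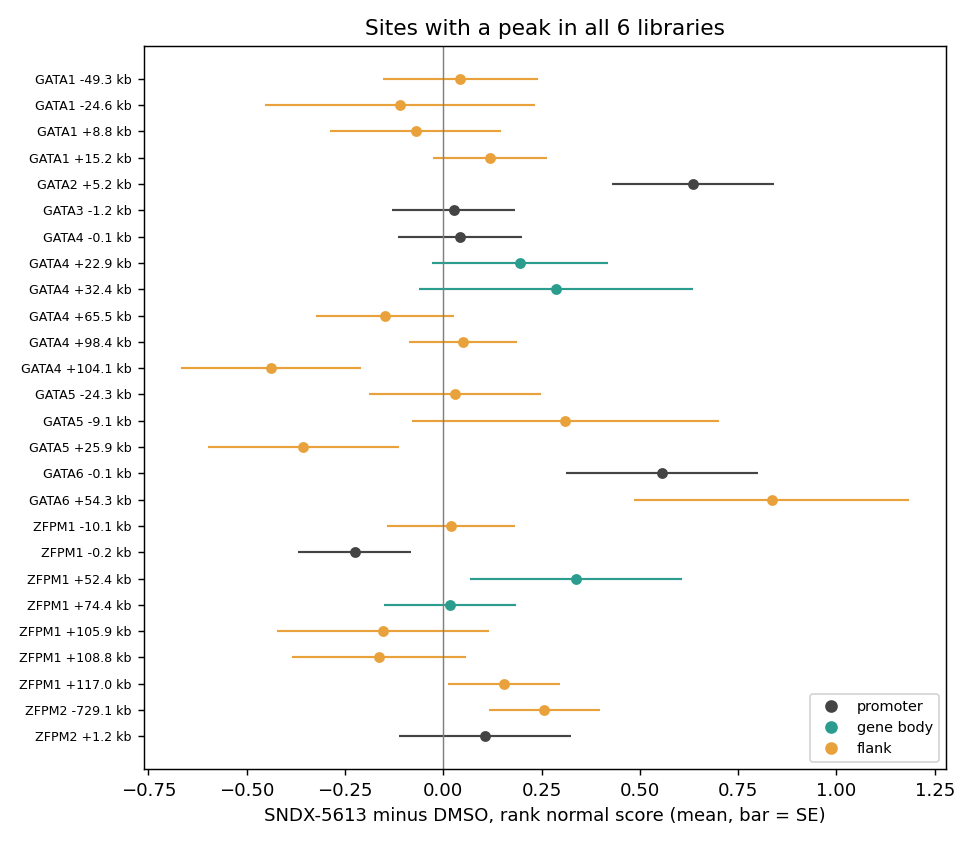
Difference of rank normal score, SNDX-5613 minus DMSO (x axis, mean with SE bars), at the 26 sites present in all 6 libraries (y axis, gene and distance of the summit from the canonical start). GATA2 and GATA6 promoters lie at 0.63 and 0.56 and the GATA6 downstream site at 0.84, and no site passed the adjusted threshold.

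By presence, 2 of the 126 sites had a peak in all 3 DMSO and no SNDX-5613 library, the GATA2 and ZFPM2 sites above, against 1.18% of all sites, and 0 were in the opposite state, against 0.147%. With SNDX-5613 replicate 3 left aside, the same 2 sites were absent from both deeper SNDX-5613 libraries, against 1.21% of all sites. Likewise 3 sites (GATA3, GATA5 and ZFPM2) were present in both of them and in no DMSO library, against 2.39% of all sites. These shares are near those of the whole series.

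A GATA word lay within 100 bp of the summit at 24 of the 126 sites (19.0%), against 20.4% of all sites. Within 250 bp it was 31.7%, against 47.4% of all sites. At the sites of all 6 libraries a word within 100 bp was at 3 of 26 (11.5%), against 14.4%. By gene, sites with a GATA word numbered 6 of 22 at ZFPM2, 5 of 23 at GATA5, 4 of 30 at ZFPM1, 3 of 13 at GATA4, 2 of 9 at GATA1, 2 of 12 each at GATA2 and GATA3, and 0 of 5 at GATA6. The CCAAT word was found at 23.8% of the sites and at 24.3% of all sites. GC content around the summits had a median of 61.7%, against 52.2% for all sites. At the 6 open promoters it was 75.4%, against 67.7% at all open protein-coding promoters, with a median width of 870 bp against 850 bp. A word match is a description of the sequence and not of binding.

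Corepressor genes that FOG proteins call on were open throughout, and the listed blood, heart and endoderm partners of GATA factors were open in part. For comparison, 64.8% of all protein-coding genes had a promoter peak in all 6 libraries. All 14 NuRD and CtBP corepressor genes had a promoter peak in all 6 libraries, among them CHD4, the NuRD remodeller, at mean percentiles of 90.7 in DMSO and 91.9 in SNDX-5613, and CTBP1 at 91.1 and 81.7. The list of 7 other genes with GATA-type zinc fingers shares MTA1, MTA2 and MTA3 with the corepressor list. Of these 7 genes, 6 had a promoter peak in all 6 libraries, TRPS1 at 69.5 and 59.9 among them, and ZGLP1 had none. Of 8 blood partners, 2 had one in all 6 (LDB1 and RUNX1). FLI1 had one in 5 libraries (means of 61.7 in DMSO and 68.5 in SNDX-5613) and LMO2 also in 5 (10.4 and 48.2), while TAL1, KLF1, SPI1 and LYL1 had no promoter peak in any library. Of 8 heart and endoderm partners, 4 had one in all 6 (NKX2-5, TBX5, MEF2C and FOXA1). HAND2 had one in 5 libraries (means of 67.2 in DMSO and 65.7 in SNDX-5613), FOXA2 in 3 (17.9 and 39.3), and HNF4A and SOX17 had none. TBX5, a heart and limb factor, was at 51.2 in DMSO and 56.6 in SNDX-5613, with a score difference of 0.54 (limma adjusted p = 0.461). In each of these lists 0 promoters were called by limma, where 25 higher and 2 lower were called among 12908 protein-coding promoters tested, and the list medians of the score difference were 0.0039 to 0.083, against −0.02 over all promoters and 0.07 over the 6 open promoters of the family.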

How the data were processed

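ATAC-seq libraries of HLF cells (3 DMSO, 3 SNDX-5613) were grouped by their labels. Per the study's methods and the submitters' processing notes, the authors aligned reads to hg38 with Bowtie2 2.3.4.1 after Trim Galore 0.6.7, marked duplicates with Picard 2.20.0 and called peaks per library in the MACS2 layout; SAMtools and deepTools 3.5.4 are also listed. A Tn5 shift, a blacklist, a filter on mapping quality and whether duplicates were removed are not given in the sources used here, and unfiltered reads can add peaks in repeats. The deposited lists give, per summit, the authors' fold enrichment (a ratio), −log10 p, −log10 q and the summit position. The authors tested read counts with DESeq2. No counts were used here, so that model was not fitted, and the 2 deposited consensus sets, which pool libraries, were not used.

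Summits were merged into regions and overlapping regions (1 bp) into sites, with Python 3.11.15, pandas 2.3.3, scipy 1.17.1, pysam 0.24.0 and the GENCODE release 44 annotation. Each site's highest −log10 p became a percentile within its library. Stacked fragments were solved from the deposited fold and −log10 p. Background and stacked fragments describe depth, since read numbers were not given. Sites in all 6 libraries were tested on rank normal scores with limma 3.58.1 (R 4.3.3, trend, Benjamini-Hochberg), a step tested on simulated data. Single values had exact two-sided permutation tests. All 8 genes were described, with sites that were called, were present in 3 of 3 against 0 of 3 libraries, or were the largest that did not overlap. Other sites were chosen after their values were seen. The members and lists were chosen with earlier results of these data known. One gene of the heart and endoderm partner list is not reported here. Alternatives covered the ranking column, thresholds, site building, distances, replicate block, library weights and leaving out each library.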

Additional observations from a re-analysis of the deposited data

How the results depend on the processing

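Near the 8 genes, 0 sites were called by limma in every alternative run, with lowest adjusted p-values of 0.194 (library weights) to 0.73 (without DMSO replicate 1), although calls over all sites ranged from 0 (ranking by fold enrichment) through 65 higher and 9 lower as reported, and 14 to 18 higher and 0 lower without a DMSO library, to 215 higher and 130 lower without SNDX-5613 replicate 3 and 297 higher and 107 lower with library weights. The replicate block gave 63 higher and 10 lower over all sites and 0 near the genes. The study describes a dish split between treatments for each replicate. The deviations of same-numbered libraries from their group means had correlations of 0.0164, 0.000532 and 0.00698. For libraries of different numbers the correlations were −0.0479 to 0.0384. Whether the libraries shared a dish was not tested. The block changed no call at the genes.

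The direction at the GATA2, GATA6 and ZFPM1 promoters was the same in all alternatives, while the size at GATA2 went from 7.66 to 30.4 points and at GATA6 from 6.65 to 31.8 with an equal number of regions, and to 23.8 and 18.7 by rank among the sites of all 6 libraries. The directions at GATA3, GATA4 and ZFPM2 turned, to 0.0452, 2.17 and 8.73 points with an equal number of regions per list, to 0.0559, 1.70 and 4.41 with ranks among the sites of all 6 libraries (an alternative chosen after seeing the data) and to 0.212, 2.19 and 3.66 without SNDX-5613 replicate 3. Leaving out 1 library gave differences from −4.12 to 0.212 at GATA3, −11.6 to 2.19 at GATA4 and −15.5 to 3.66 at ZFPM2. The sites of every DMSO and no SNDX-5613 library (2) became 0 with an equal number of regions, 1 with fixed windows, 1 with a 25 kb flank, 0 when a region had to cover 50% of the site, and up to 5 with 1 library left out. The opposite sites (0) became 1 under the 50% rule and up to 3 without SNDX-5613 replicate 3. A peak in both deeper SNDX-5613 and no DMSO library was found at 2.39% of all sites. Leaving out a library loosens the presence rule for every site of the series. For the other libraries left out and for the 50% rule, the share over all sites was not computed. Sites higher in SNDX-5613 without overlap (1) became 3 by rank among the sites of all 6 libraries, 0 at the stricter threshold and up to 10 without SNDX-5613 replicate 3, and lower sites (1) became 0 with an equal number of regions or by that rank, 2 with a 100 kb flank and up to 4 without SNDX-5613 replicate 1. The 10 were among 46 sites, with 2 SNDX-5613 libraries against 3 DMSO libraries, where groups separate more easily. For the settings that left out a library, the share of such sites over the whole series was not computed. Those counts are therefore not read as a result about the genes. Genes whose site numbers did not overlap (0) became up to 2 without DMSO replicate 1. GATA words were at 9.52% of the sites within 50 bp, against 9.56% of all sites, and at 31.7% within 250 bp, against 47.4%. The causes of these changes were not tested. Depth was lowest in SNDX-5613 replicate 3, and its part in which sites that library lacks was not tested.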
